A study of Mus musculus with 4 samples.

Results

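Annexins and S100 proteins were followed as 10 genes, Anxa1 to Anxa6, S100a4, S100a6, S100a10 and S100a11, out of the 29 annexin and S100 genes found among 55487 genes of a count table. They were chosen by the measured rise of Anxa2, Anxa3 and Anxa5 from d2 to d4, so that contrast was used in the choice and their own changes are given below as a description, without a test. The table holds RNA-seq of wild-type ES-E14TG2a cells (E14-Tg2a), an established feeder-free mouse embryonic stem cell line, under cardiogenic differentiation. There were 2 libraries per day, which the study's text ascribes to independent differentiation experiments. Cells of d2 were embryoid bodies after 48 h without serum. Cells of d4 went through the same 48 h, after which the bodies were dissociated and left to reaggregate for 40 h with VEGF at 5 ng/ml, BMP4 at 0.5 ng/ml and Activin A at 8 ng/ml, also without serum. No library lacked the factors at d4 or held them at d2, so day, added factors and reaggregation cannot be told apart. No sort is described for these cells, and in such bulk RNA fewer cells of a type and less RNA per cell cannot be told apart.

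Annexins are cytosolic proteins that bind acidic phospholipids, phosphatidylserine among them, when calcium rises, and they take part in membrane repair, vesicle traffic and the link between membranes and actin. S100 proteins are small calcium-binding proteins of the EF-hand type that mostly work as dimers and attach to partner proteins, several annexins included. The best known pair is ANXA2 with S100A10, which form a heterotetramer at the plasma membrane of endothelial and other cells, where it binds the giant scaffold AHNAK and promotes the activation of plasminogen.

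Libraries held 11397439 to 16851485 counts, so that 3 counts correspond to between 0.178 and 0.263 CPM, the usual count scaled to library size. CPM values below are normalized by TMM factors, log2 fold changes are d4 over d2 from edgeR's fit over 14932 genes with their standard error (SE), and a gene passed the test at a Benjamini-Hochberg adjusted p under 0.01. Of all genes tested, 12.9% passed as higher and 11.3% as lower at d4, 24.3% together. Where d2 replicate 1 or 2 was left out, edgeR called 0 genes (6343 and 6012 had an unadjusted p under 0.05), whereas DESeq2 on the same libraries called 1049 and 985 genes higher. The p-values of edgeR set the difference between days against the spread between these 2 libraries per day, moderated over all genes tested.

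The cell types of the cultures moved with the day too. All 6 EC (endothelial cell) markers tested of 7 listed were higher at d4, and their summed level went from 24.5 to 28.1 CPM at d2 to between 934 and 1235 CPM at d4. All 6 primitive erythroid markers were higher at d4 (summed 2.04 to 2.05 CPM at d2, 252 to 387 CPM at d4), as were 4 of 7 mural and fibroblast markers tested, with 1 lower (list sum 22.1 to 28.1 CPM at d2, 244 to 352 CPM at d4), and 4 of 6 trophoblast markers, with 1 lower (list sum 15.7 to 18.7 CPM at d2, 243 to 267 CPM at d4). Of 7 pluripotency markers, 5 were lower at d4, and the list sum went from between 946 and 1254 CPM to about 33 CPM (32.9 and 33.2). Most of the trophoblast sum was Eomes, a gene of early mesoderm as well, singled out here after its values were seen. Without it the sum was 4.48 to 5.73 CPM at d2 and 27.5 to 27.8 CPM at d4, and Prl3d1 had 0 counts. The white blood cell gene Ptprc, the macrophage gene Adgre1 and the platelet genes Pf4 and Gp1bb had 0 counts in every library. Yet 2 of 2 megakaryocyte markers and 2 of 2 myeloid markers that could be tested were higher at d4. The megakaryocyte sum was 0.304 to 0.572 CPM at d2 and 67.0 to 92.6 CPM at d4. Most of it was Itga2b (89.7 and 65.5 CPM at d4), singled out after its values were seen. The myeloid sum was 0.380 to 0.654 CPM at d2 and 5.18 to 6.69 CPM at d4. The epidermal markers summed to at most 0.981 CPM, extraembryonic endoderm markers to 2.28 to 3.44 CPM at d2 and 3.41 to 5.67 CPM at d4, and cardiomyocyte markers, 1 higher and 2 lower of 5 tested, to 24.1 to 34.5 CPM at d2 and 19.5 to 22.0 CPM at d4. The part of these cell types in the values below was not tested.

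RefSeq promoter sequence was at hand for 7 of the 10 genes, in 8 windows of 250 bases before an annotated start (build GRCm38.p6). Below are the windows of Anxa2, S100a11, Anxa5 and S100a6, shown because the first 3 genes differ in what their windows hold although each was higher at d4, and because S100a6 is the expressed S100 member whose days overlapped. Bases that an exon of the gene covers in the GENCODE annotation are left off the 3′ end. Capitals mark the letters of 6 motifs. The AP-1 motif was searched as TGANTCA on both strands. For GATA factors the letters were AGATAA, again on both strands. ETS factors were represented by CCGGAA and read in the same way. The TEAD motif was written as GGAATG and the SP1 motif as GGGCGG, with both strands read for each. A TATA box was taken as TATAAA on the strand of the gene only.
Anxa2, chr9:69453433-69453619, plus strand: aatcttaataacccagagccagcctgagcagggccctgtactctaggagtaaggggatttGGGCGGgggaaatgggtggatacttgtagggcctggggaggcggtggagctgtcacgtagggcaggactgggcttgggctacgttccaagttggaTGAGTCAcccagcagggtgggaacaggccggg
S100a11, chr3:93520246-93520487, plus strand: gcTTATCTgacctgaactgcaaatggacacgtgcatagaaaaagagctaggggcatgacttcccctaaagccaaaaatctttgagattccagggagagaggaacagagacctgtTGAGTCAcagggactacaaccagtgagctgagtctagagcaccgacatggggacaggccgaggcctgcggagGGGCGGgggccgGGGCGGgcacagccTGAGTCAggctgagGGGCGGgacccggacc
Anxa5, chr3:36475895-36476137, minus strand: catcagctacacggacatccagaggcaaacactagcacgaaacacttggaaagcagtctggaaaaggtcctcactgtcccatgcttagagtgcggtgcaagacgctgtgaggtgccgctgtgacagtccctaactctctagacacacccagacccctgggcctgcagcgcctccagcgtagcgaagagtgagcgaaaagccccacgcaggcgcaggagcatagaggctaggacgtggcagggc
S100a6, chr3:90612644-90612881, plus strand: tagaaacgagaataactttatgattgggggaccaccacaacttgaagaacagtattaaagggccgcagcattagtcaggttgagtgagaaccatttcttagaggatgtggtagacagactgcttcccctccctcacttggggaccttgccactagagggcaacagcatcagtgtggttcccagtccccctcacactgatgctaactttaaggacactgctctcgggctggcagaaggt

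The full Anxa2 window held 1 AP-1 match, 95 bases before the RefSeq start, 3 SP1 matches and a TATA box 17 bases before that start. In GENCODE an exon of the gene covers the last 63 bases of this window. The TATA box and the SP1 matches at 48 and 24 bases lie within them. The S100a11 window held 2 AP-1 matches, at 136 and 38 bases, a GATA match at 248 bases and 3 SP1 matches. No searched motif was found in the Anxa5 and S100a6 windows or in the upstream of the 2 Anxa4 windows, and the other Anxa4 window held a GATA match. The windows of the genes at or near 0 counts held matches as well: a TATA box for S100a4, and ETS, TEAD and TATA box matches for Anxa1. Among 32851 mouse promoter windows of the same length, 6.75% held an AP-1 match, 9.99% GATA, 12% ETS, 12.6% TEAD, 32.7% SP1 and 7.59% a TATA box. A match describes the letters and says nothing about a factor being bound there.

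Anxa2 and S100a10, the genes of the heterotetramer, had the greatest fold difference between days among the 8 members tested. Anxa2 (ENSMUSG00000032231, chr9:69453620-69491795) gave 80 and 94 counts at d2, against 3222 and 3633 at d4, or 6.54 and 7.14 CPM against 273 and 214 CPM. Its mean CPM was 6.84 ± 0.42 at d2 and 243 ± 42 at d4 (SD over n = 2), a log2 fold change of 5.15 (SE 0.25), or 35.5-fold. S100a10 (ENSMUSG00000041959, chr3:93555080-93564643) gave 153 and 143 counts at d2, against 5249 and 6349 at d4. Its means were 11.7 ± 1.2 and 409 ± 50.0 CPM, a log2 fold change of 5.13 (SE 0.24), or 35.0-fold. For both genes each d4 library lay far above each d2 library.

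The partners kept close to the same proportion on the 2 days. Divided by exon length, the level of S100a10 was 5.89 and 4.68 times that of Anxa2 at d2 and 5.02 and 5.38 times that of Anxa2 at d4, so the ratios of the days overlapped (5.29 ± 0.85 at d2 and 5.20 ± 0.26 at d4, SD, n = 2). With the length of the coding transcript in place of all exons, since the exon length of Anxa2 also counts retained introns, the ratio was 3.63 ± 0.58 and 3.57 ± 0.18. Only Anxa2 of the pair was among the genes whose change led to the choice.

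Among the remaining annexins, Anxa5 and Anxa3 differed by a similar factor. Anxa5 (ENSMUSG00000027712, chr3:36448923-36475894), whose product is used as a probe for exposed phosphatidylserine on dying cells, gave 74 and 66 counts at d2, against 891 and 1076 at d4. Its mean CPM was 5.53 ± 0.74 at d2 and 69.4 ± 8.6 at d4 (SD over n = 2), with a log2 fold change of 3.65 (SE 0.25), or 12.5-fold. Anxa3 (ENSMUSG00000029484, chr5:96793339-96845966), known from the granules of neutrophils, gave 20 and 30 counts at d2, against 331 and 356 at d4. These came to 1.96 ± 0.45 and 24.5 ± 5.0 CPM and a log2 fold change of 3.63 (SE 0.31), or 12.4-fold. Anxa3 was the lowest of the expressed annexin members at d2, and in both genes the days did not overlap.

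Anxa6 (ENSMUSG00000018340, chr11:54979108-55033445), whose protein carries a duplicated annexin core, started from a higher level. It gave 688 and 583 counts at d2, against 2524 and 2815 at d4, or 50.3 ± 8.5 and 190 ± 34 CPM (SD, n = 2), with a log2 fold change of 1.92 (SE 0.24), or 3.77-fold. Anxa4 (ENSMUSG00000029994, chr6:86736840-86793584), an annexin known mostly from epithelia, was the member with a lower value at d4. It had 40.4 and 43.7 CPM at d2 and 31.6 and 25.3 CPM at d4, with a log2 fold change of -0.57 (SE 0.22). Both of its d4 libraries lay below both d2 libraries, but the difference did not pass the test over all genes. Anxa1 (ENSMUSG00000024659, chr19:20373428-20390944), the anti-inflammatory annexin that acts through formyl peptide receptors, had 3 counts in d2 replicate 2 and 0 in the other libraries, and it fell below the filter on low counts.

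S100a11 (ENSMUSG00000027907, chr3:93520488-93526287), a partner of ANXA1, gave 73 and 63 counts at d2, against 221 and 280 at d4. Its mean CPM was 5.38 ± 0.84 at d2 and 17.6 ± 1.6 at d4 (SD over n = 2), with a log2 fold change of 1.71 (SE 0.26), or 3.27-fold, and the days did not overlap. S100a6 (ENSMUSG00000001025, chr3:90612882-90624181), the calcyclin that binds CACYBP and SUGT1, had 3.68 and 1.67 CPM at d2 and 3.22 and 3.12 CPM at d4. Its d4 libraries lay between the d2 libraries. The log2 fold change was 0.25 (SE 0.42) and went from -0.26 without d2 replicate 2 to 0.92 without d2 replicate 1, so no direction can be given.

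S100a4 (ENSMUSG00000001020, chr3:90603771-90606045), which binds non-muscle myosin, had 0 counts in all 4 libraries. In the annotation, 302 of its 584 exon bases (51.7%) are also exon of another gene on the same strand, Gm42674, which was at 0 as well. The authors did not count reads that overlap more than 1 gene, so reads from those bases would have been dropped, and the zero rests on the remaining bases. For no other member was more than 3.07% of the exon bases (Anxa3 with Gm42603) also exon of another gene. S100a11 has near-identical stretches of 297 bases in the processed pseudogenes Gm12854 (99.0% identity, 3 and 4 counts at d2, 7 and 6 at d4) and Gm7665 (98.7%, 1 and 2 counts at d2, 8 and 5 at d4), and Anxa4 shares 78 bases with Gm44036, with 0 to 2 counts per library. For S100a11 the transcript is 511 bases long, and the authors left out reads with several positions. Its level may therefore be understated, by an amount not measured. No stretch of at least 75 bases, the length of a read, at 95% identity or more was found for the other 7 members. The coding sequences of Anxa1 to Anxa5 were identical at 53.1% to 61.6% of aligned bases, highest for Anxa4 with Anxa5. Anxa6, with a coding length of 2022 bases against 960 to 1041, matched the others at 35.4% to 38.0%, and the S100 members matched each other at 51.3% to 60.6%.

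**Figure D1:**
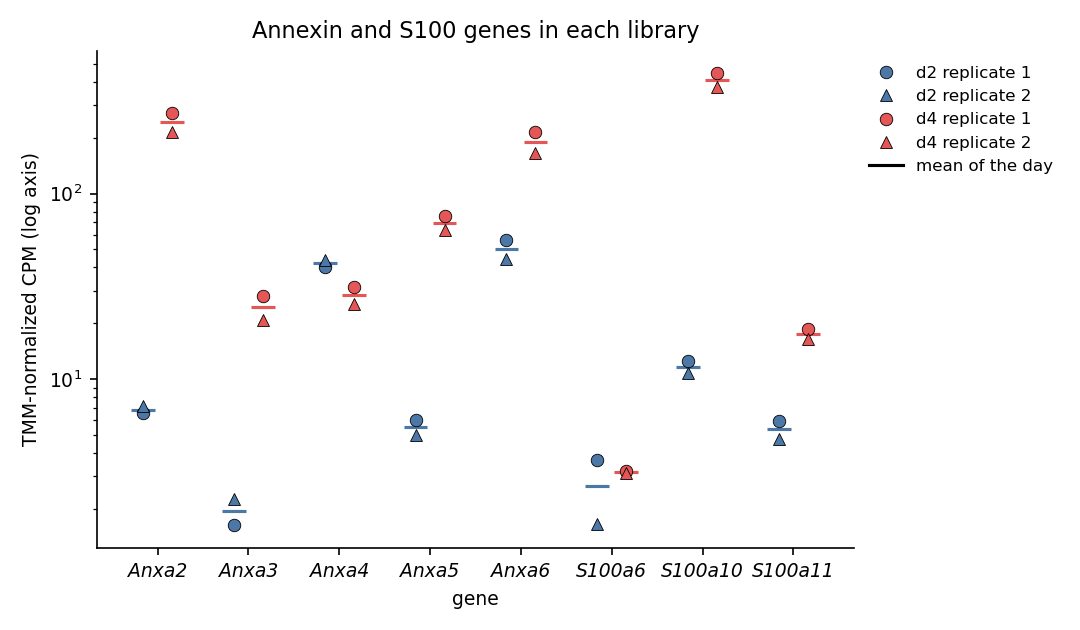
TMM-normalized CPM on a log axis for the 8 genes that passed the filter, with the libraries of d2 in blue and of d4 in red, circles for replicate 1, triangles for replicate 2 and a line at the mean of each day. Anxa2 and S100a10 are furthest apart between days, from 6.84 to 243 CPM and from 11.7 to 409 CPM, Anxa4 is lower at d4, and the days overlap for S100a6.

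Of the 10 genes, 8 could be tested, and 6 of these passed as higher at d4 and 2 (Anxa4 and S100a6) did not pass, beside the 12.9% of all genes that passed as higher. Their median log2 fold change was 2.77, against -0.03 over all genes tested. In 6 genes both d4 libraries lay above both d2 libraries, as in 35.8% of all genes tested, and in 1 both lay below, as in 35.2%. Since this contrast chose the genes, nothing is read from these counts. With 1 library left out, the log2 fold change of S100a11, the smallest of the 6, ran from 1.51 to 1.88.

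Per kb of exon, the order of levels differed between the days. At d2 Anxa6 stood first (17.2 ± 2.9 CPM per kb), above S100a11 (10.5 ± 1.6), S100a10 (9.64 ± 0.96) and Anxa4 (9.06 ± 0.51), neighbours in the order whose libraries overlapped. Then came Anxa5 (3.11 ± 0.41), S100a6 (1.96 ± 1.04) and Anxa2 (1.83 ± 0.11), the last 2 overlapping, and Anxa3 (0.537 ± 0.125). At d4 S100a10 stood first at 337 ± 41 CPM per kb, in both libraries above all others. Anxa2 (65.2 ± 11.2) and Anxa6 (64.7 ± 11.6) followed and overlapped, as did Anxa5 (39.0 ± 4.8) with S100a11 (34.4 ± 3.1) and Anxa3 (6.72 ± 1.37) with Anxa4 (6.12 ± 0.95). S100a6 (2.32 ± 0.05) was the lowest member with counts in both d4 libraries. Part of the order depends on the length used. Per kb of coding transcript, Anxa4 (20.7 ± 1.2 CPM per kb) stood beside Anxa6 (20.2 ± 3.4) and S100a10 (17.1 ± 1.7) at the top at d2, each overlapping the next, and Anxa2 (4.73 ± 0.29) stood above Anxa5 (3.20 ± 0.42). At d4, S100a10 (597 ± 73) was first on that length too, while Anxa2 (168 ± 29) lay above Anxa6 (76.2 ± 13.6) without overlap.

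The make-up of the annexin RNA differed accordingly. Summed over the 12 annexin genes, levels were 54.4 ± 4.0 CPM per kb at d2 and 200 ± 31 at d4 (SD, n = 2), a ratio of 3.67. Anxa2 made up 3.06% and 3.71% of that sum at d2, then 33.0% and 32.2%, and Anxa5 5.95% and 5.47% against 19.2% and 20.1%. The share of Anxa6 overlapped between the days (33.5% and 29.3%, then 32.9% and 31.8%), but not when CPM was not divided by length (23.6% and 20.1%, then 29.4% and 28.2%). Anxa7 went from 30.2% to 8.12%, Anxa4 from 16.7% to 3.07% and Anxa11 from 9.99% to 0.469% on average. The shares depend on the length used, and with the coding transcript Anxa2 had 48.1% at d4.

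The 17 S100 genes of the table summed to 27.7 ± 5.0 CPM per kb at d2 and 387 ± 48 at d4, a ratio of 13.97. S100a10 made up 33.0% and 37.1% of the sum at d2 and 87.1% in either d4 library. S100a11 went from 38.1% to 8.90% of the sum while its own level was higher at d4, S100a1 went from 14.7% to 2.498% and S100a6 from 6.83% to 0.602%. With the coding transcript length, S100a10 had 46.5% at d2 and 92.0% at d4.

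**Figure D2:**
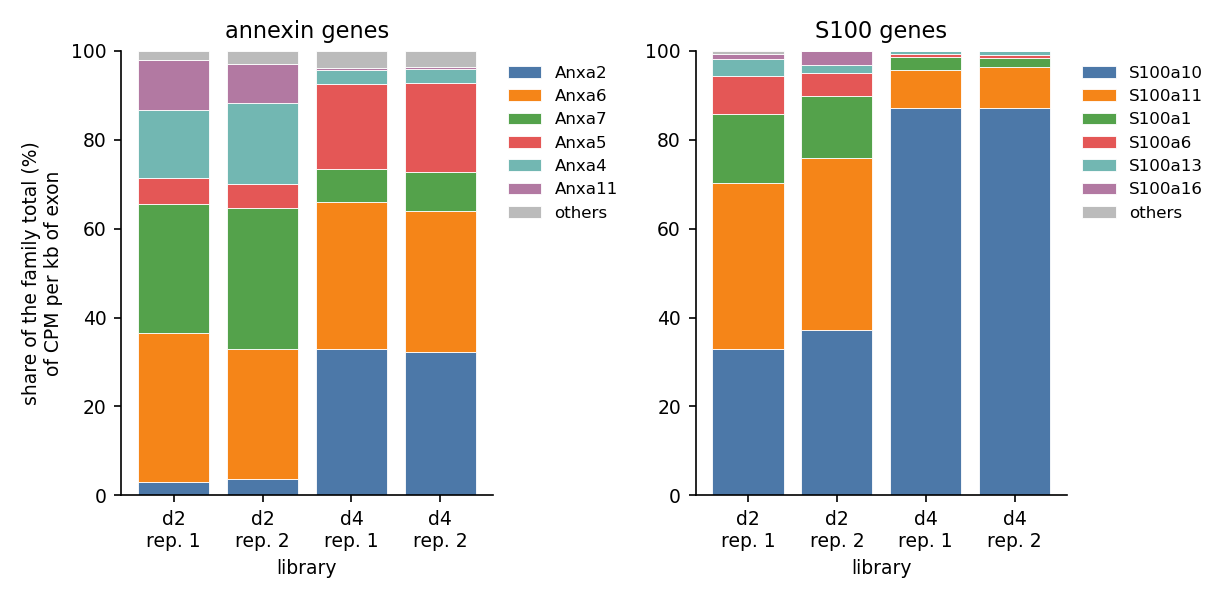
Share of each gene in the summed CPM per kb of exon of the annexin genes (left) and of the S100 genes (right), in percent, 1 bar per library. Anxa2 goes from 3.39% to 32.6% on average and Anxa7 from 30.2% to 8.12%, while S100a10 goes from 35.0% to 87.1% of the S100 sum.

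The 19 other annexin and S100 genes of the table were left out of a list chosen with earlier results of these data known. Their p-values are therefore not independent of that choice. Of these 19 genes, 6 could be tested by edgeR and 1 passed. Anxa11, an annexin that tethers RNA granules to lysosomes, fell. It gave 326 and 245 counts at d2, against 46 and 64 at d4, or 22.6 ± 5.7 and 3.83 ± 0.09 CPM (SD, n = 2), with a log2 fold change of -2.56 (SE 0.29, adjusted p = 0.000614), 5.90-fold lower at d4. DESeq2 called Anxa11 with any 1 library left out. Anxa7 (synexin) had 98.3 ± 1.3 CPM at d2 and 96.3 ± 4.7 CPM at d4, a log2 fold change of -0.03 (SE 0.19, adjusted p = 0.912). Anxa9 gave 11 and 10 counts at d2, against 26 and 23 at d4 and a log2 fold change of 1.07 (SE 0.43, adjusted p = 0.0968).

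None of the 3 other S100 genes tested passed with edgeR, DESeq2 or limma voom, although all 3 had an unadjusted p under 0.05 with edgeR. S100a1, known from heart and skeletal muscle, gave 41 and 31 counts at d2, against 98 and 90 at d4 (log2 fold change 1.24, SE 0.36, adjusted p = 0.0322). S100a13, which takes part in the release of FGF1, gave 10 and 4 counts at d2, against 29 and 39 at d4 (2.08, SE 0.49, adjusted p = 0.0146). S100a16 gave 7 and 17 counts at d2, against 2 and 3 at d4 (-2.38, SE 0.69, adjusted p = 0.0325). Without d4 replicate 1 edgeR called S100a13, and without d4 replicate 2 S100a1 as well. Below the filter were Anxa8 (7 and 8 counts at d2, 1 and 0 at d4) and Anxa10 (5 counts in d2 replicate 2 alone). Listed at 0 counts in every library were Anxa13, S100a3, S100a5, S100a7a, the calprotectin genes S100a8 and S100a9, S100a14, the glial S100b, S100g and S100z, and S100a2 had 1 count.

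**Figure D3:**
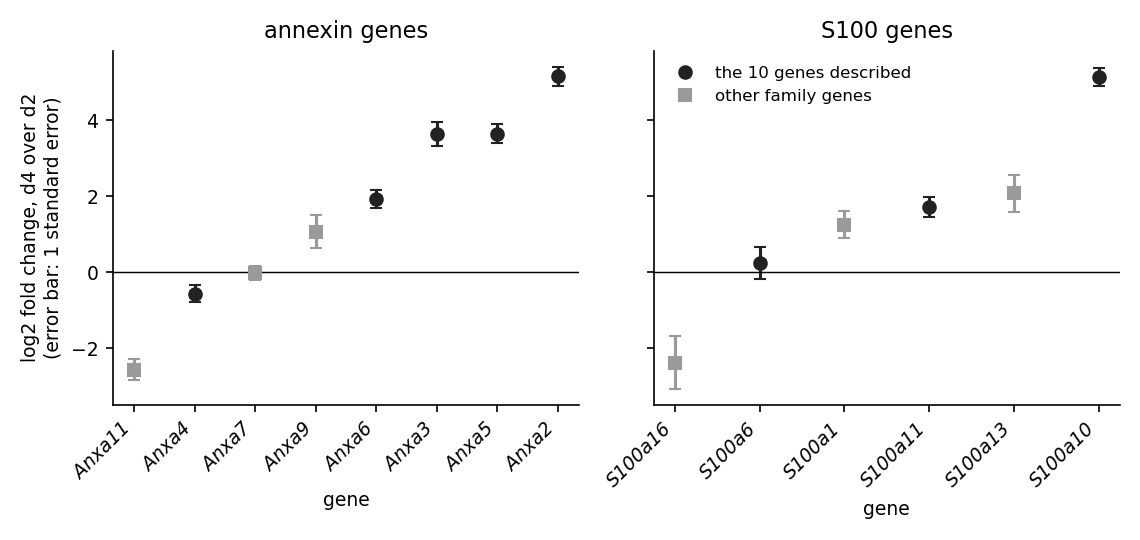
Log2 fold change of d4 over d2 with 1 standard error (edgeR) for the 8 annexin genes (left) and 6 S100 genes (right) that could be tested, black circles for the genes described and grey squares for the other family genes. Values run from -2.56 for Anxa11 to 5.15 for Anxa2, and from -2.38 for S100a16 to 5.13 for S100a10.

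On the chromosomes the 6 annexin members are scattered, while 14 of the 17 S100 genes lie on chromosome 3. There S100a11 and S100a10 are 28.8 kb apart, and S100a4 ends 6.84 kb before S100a6. Between S100a6 and S100a11 lie 2.896 Mb with 63 protein-coding genes, of which 54 had 0 counts in all libraries and 1 could be tested. The S100-fused genes of that stretch, which build the cornified skin layer, were almost silent: Hrnr, Flg, Flg2, Rptn, Tchhl1 and Crnn had 0 counts and Tchh 3 to 10 per library. Of 33 protein-coding genes that stand within 2 places of a member, 16 could be tested and 13 did not pass. With 12.9% of all genes tested higher at d4, nothing is read from the 3 neighbours that were higher, named here after their values were seen. These were Bmp2k beside Anxa3 (log2 fold change 1.61, SE 0.23, adjusted p = 0.00187), Aak1 beside Anxa4 (1.01, SE 0.19, adjusted p = 0.00587) and Gpx3 near Anxa6 (2.91, SE 0.23, adjusted p = 0.000174).

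Genes of known binding partners and of membrane repair were partly higher. Of 16 tested, 7 passed as higher at d4 and 9 did not pass, with a median log2 fold change of 0.58. Of all genes tested, 12.9% passed as higher and 11.3% as lower. This list and the related lists below were chosen with earlier results of these data known. Their p-values are therefore not independent of that choice. Ahnak, the scaffold bound by the ANXA2 and S100A10 complex, gave 71 and 56 counts at d2, against 5562 and 10557 at d4, or 5.03 ± 1.10 and 546 ± 106 CPM (SD, n = 2), with a log2 fold change of 6.76 (SE 0.31, adjusted p = 4.50e-05). Capn2, the catalytic chain of a calcium-dependent protease, had 26.4 ± 0.5 and 176 ± 19 CPM (2.74, SE 0.21, adjusted p = 0.000144). Myof, a ferlin of membrane fusion and repair, had 1.34 ± 0.07 and 14.4 ± 1.4 CPM (3.42, SE 0.29, adjusted p = 0.000222). Sri, the EF-hand protein sorcin that binds ANXA7, had 7.04 ± 0.47 and 43.2 ± 3.2 CPM (2.61, SE 0.23, adjusted p = 0.000224). These 4 genes were also called by DESeq2 with any 1 library left out.

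Plasminogen activation, which the ANXA2 and S100A10 complex promotes at the cell surface, showed no gene past the test among those reported. Of 5 genes tested edgeR, DESeq2 and limma voom called 0, with 1 higher and 2 lower at an unadjusted edgeR p under 0.05. The activators Plat and Plau had log2 fold changes of 0.57 (SE 0.34, adjusted p = 0.240) and 0.99 (SE 0.44, adjusted p = 0.121), and the receptor gene Plaur 1.59 (SE 0.45, adjusted p = 0.0291). Without d4 replicate 2 edgeR called Plaur, and without the filter on low counts it called Plaur higher (adjusted p = 0.00270) and Plgrkt lower (adjusted p = 0.00539). Plgrkt, a plasminogen receptor, had -1.03 (SE 0.26, adjusted p = 0.0186), and the inhibitor gene Serpine2 had -0.65 (SE 0.20, adjusted p = 0.0424). Plg itself, mostly a liver product, had 2 counts in 1 library.

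Among genes that expose or bind phosphatidylserine, the lipid that ANXA5 binds, 7 of 16 tested passed as higher, 2 as lower and 7 did not pass. This stands beside 12.9% higher and 11.3% lower of all genes tested. The median log2 fold change of the list was 0.70. Gas6, whose product bridges phosphatidylserine to receptors such as MERTK, had 8.57 ± 2.68 CPM at d2 and 92.7 ± 13.2 at d4 (log2 fold change 3.43, SE 0.29, adjusted p = 0.000219). Mfge8, a bridge to integrins, had 10.2 ± 1.4 and 59.6 ± 0.03 CPM (2.54, SE 0.22, adjusted p = 0.000236), and the flippase gene Atp8a1 had 10.2 ± 0.3 and 53.1 ± 0.9 CPM (2.38, SE 0.21, adjusted p = 0.000245). The scavenger receptor gene Stab1 gave 0 and 1 counts at d2, against 145 and 103 at d4, a ratio of 219 with an exact 95% counting interval of 38.9 to 8669 (adjusted p = 0.000475). Mertk, a receptor for Gas6, fell from 9.63 ± 2.45 to 1.37 ± 0.14 CPM (-2.80, SE 0.34, adjusted p = 0.000883), and the scramblase gene Xkr4 from 3.10 ± 0.56 to 0.682 ± 0.366 CPM (-2.11, SE 0.44, adjusted p = 0.00938). Other Gas6 receptor genes, named after their values were seen, did not fall in the same way. Axl was higher at d4 (2.96 ± 0.10 to 10.0 ± 1.8 CPM, 1.75, SE 0.29, adjusted p = 0.00326), with 1.57 to 1.93 over the alternatives. Tyro3 did not pass (99.6 ± 19.5 to 66.4 ± 0.7 CPM, -0.58, SE 0.22, adjusted p = 0.0728). DESeq2 with 1 library left out called 4 to 6 of this list higher, lost Mertk without d2 replicate 1 and lost Xkr4 in all 4 cases, and edgeR with DESeq2 size factors and limma voom did not call Xkr4 either.

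Among receptors and enzyme targets of the families, the receptor genes were low. Ager, a receptor of several S100 proteins, gave 9 and 7 counts at d2, against 64 and 51 at d4 (log2 fold change 2.70, SE 0.46, adjusted p = 0.00397). Tlr4, a receptor for S100A8 and S100A9, had 0 counts at d2 and 15 and 17 at d4, which with 3 counts per library as the floor is at least 4.80-fold higher (adjusted p = 0.00435). Pla2g4a, the phospholipase that annexins can inhibit, fell from 9.62 ± 2.503 to 2.42 ± 0.91 CPM (-1.97, SE 0.37, adjusted p = 0.00590). DESeq2 with 1 library left out called neither Ager nor Tlr4 in any of 4 cases and Pla2g4a only without d4 replicate 2. Fpr1, Fpr2 and Fpr3, the receptors of ANXA1, had 0 counts.

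Of 13 genes for EF-hand proteins outside the S100 family, 3 passed as higher, 1 as lower and 9 did not pass, with a median log2 fold change of 0.66. With 12.9% of all genes tested higher and 11.3% lower, nothing is read from these counts. The reticulocalbin genes Rcn1 and Rcn3, of calcium-binding proteins in the endoplasmic reticulum, had log2 fold changes of 1.70 (SE 0.20, adjusted p = 0.000858) and 1.85 (SE 0.27, adjusted p = 0.00210), and Efhd2 had 1.75 (SE 0.24, adjusted p = 0.00145). Gca (grancalcin) fell from 29.9 ± 7.3 to 1.68 ± 0.46 CPM (-4.13, SE 0.34, adjusted p = 0.000181), 17.5-fold. DESeq2 lost Rcn3 without d2 replicate 2 and called 5 genes of the list higher with all libraries.

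**Figure D4:**
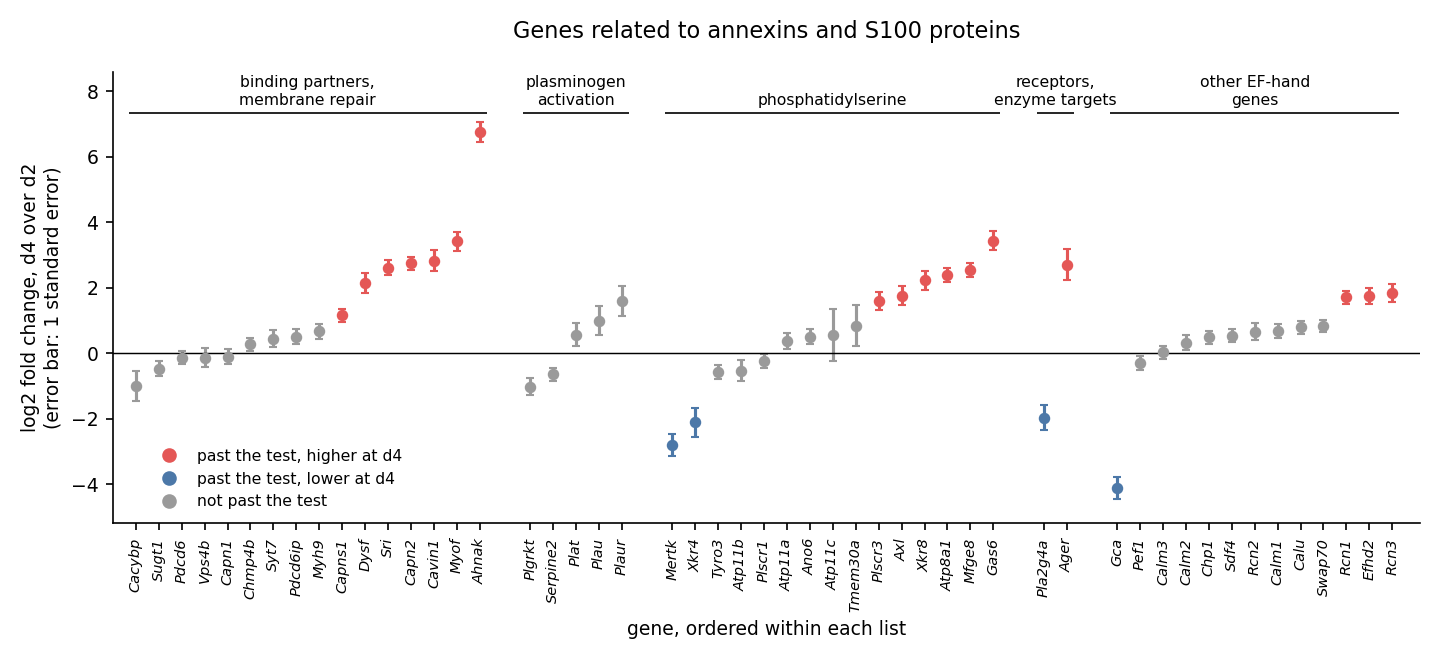
Log2 fold change of d4 over d2 with 1 standard error (edgeR) for 51 tested genes in 5 lists of genes related to annexins and S100 proteins, red for past the test as higher at d4, blue for lower and grey for not past it. Stab1 and Tlr4, with 0 or 1 counts at d2, are left out. Ahnak is highest at 6.76 and Gca lowest at -4.13, and no plasminogen gene shown passed.

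The genes whose levels over the 4 libraries lay closest to each of the genes that led to the choice were found by Euclidean distance in log2 CPM, as a description. For Anxa2 they were Vldlr (distance 0.58), Ets1 (0.60) and Ccnd2 (0.66). Those of Anxa3 were Clmp (0.37), Kcnmb4 (0.38) and Sema6d (0.42), and those of Anxa5 were Mogat2 (0.35), Vangl1 (0.36) and Hes1 (0.39). Within a distance of 0.5 lay 6 genes for Anxa5, 3 for Anxa3 and 0 for Anxa2.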

How the data were processed

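By the study's methods, the authors made strand-specific libraries, trimmed paired reads with cutadapt, aligned them to GRCm38 with STAR and counted reads per gene with featureCounts, leaving out reads with several positions or genes. The deposited values are raw counts, without normalization. The labels name a forward-strand table and the file given a reverse-strand one.

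Symbols, positions and lengths came from GENCODE M21 for 55227 of 55487 genes, matched by ID without version. A one-sided proportion test against 0.5 CPM (adjusted p under 0.05 on either day) left 14932 genes. The comparison used R 4.3.3 and edgeR 4.0.16 (TMM, quasi-likelihood test, day as the only term, two-sided, Benjamini-Hochberg adjusted p under 0.01), checked on simulated counts. SD is over the 2 libraries of a day, which had a log2 CPM correlation of 0.983 at d2 and 0.977 at d4. Intervals and floors cover counting error only.

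The members and lists were chosen with earlier results of these data known. Named were all members and other family genes, in each related list every gene tested up to 12, otherwise the 4 with the smallest adjusted p and any called in the rarer direction, and for 3 members the 3 nearest genes. Axl and Tyro3 were added after their values were seen. Coding sequences were compared by global alignment (Biopython 1.88) in place of proteins, and copies sought with blastn 2.17.0. Alternatives were DESeq2 size factors, no filter, filterByExpr, DESeq2 1.42.0, limma 3.58.1 voom, an adjusted p under 0.05, a block on the replicate number and the loss of each library in turn. DESeq2 with a library left out and coding-transcript lengths were added after seeing the data. A gene of the plasminogen list is not reported here.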

Additional observations from a re-analysis of the deposited data

How the results depend on the processing

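Over 14 alternatives the log2 fold changes of the members ranged over 4.96 to 5.32 for Anxa2, 4.98 to 5.25 for S100a10, 3.47 to 3.79 for Anxa5, 3.41 to 3.89 for Anxa3, 1.70 to 2.10 for Anxa6, 1.51 to 1.88 for S100a11 and -0.73 to -0.41 for Anxa4. That of S100a6 ranged from -0.26 to 0.92 and changed sign without d2 replicate 2.

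Against 1933 genes higher and 1694 lower at d4, there were 2901 and 2873 without a filter, 2991 and 2679 at an adjusted p under 0.05, 3478 and 3496 with the replicate block, and, with a library left out, 0 to 2269 higher and 0 to 2475 lower in edgeR. DESeq2 gave 1049 and 730 without d2 replicate 1, 985 and 722 without d2 replicate 2, 1248 higher without d4 replicate 1 and 1268 higher without d4 replicate 2. Both 0s came without a d2 library in edgeR, where the lowest adjusted p was 0.0181 without replicate 1 and 0.0172 without replicate 2. Of the other annexin and S100 genes, 0 were higher and 1 lower. There were 2 and 3 without a filter, 2 and 2 at an adjusted p under 0.05, 2 and 2 with the replicate block, and 0 to 2 and 0 to 1 with a library left out. Of the related genes, 19 were higher and 4 lower, with 9 lower under the replicate block and, with a library left out, 0 to 21 higher and 0 to 6 lower. The lowest count of higher genes with DESeq2 was 12, without d2 replicate 2, where 2 were lower, and 1 was lower without d2 replicate 1 and 2 without d4 replicate 1.

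Labels do not tie replicate numbers to a shared batch. Deviations from the mean of the day correlated at 0.482 over genes between same-numbered libraries. With 2 libraries per day both pairs give this same value by construction, so it counts as a single value. With the block the same 6 members were called higher, and Anxa4 was called lower. Of the 5 plasminogen genes tested, 1 was called higher and 2 lower with the block.

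Shares depend on the length used. Without division by length, the shares at d2 and d4 were 42.9% and 14.8% for Anxa7, 21.9% and 28.8% for Anxa6, 48.7% and 93.2% for S100a10 and 22.3% and 4.02% for S100a11, with 37.0% for Anxa2 at d4. With the coding transcript they were 5.03% and 48.1% for Anxa2, 35.9% and 9.57% for Anxa7, 21.4% and 21.8% for Anxa6, 46.5% and 92.0% for S100a10 and 28.5% and 5.32% for S100a11. The cause of the other changes was not tested. With 2 libraries per day, an exact permutation of a single gene could not reach a p below 0.333, and genes under about 0.2 CPM could not be told from 0 counts.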

Other observations

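In all 8 members tested, d4 replicate 2 lay below d4 replicate 1, by 0.04 (S100a6) to 0.42 (Anxa3) on the log2 CPM scale. The share of all genes with that order was not counted, so nothing is read from it about these members. At d2 the replicates differed in either direction, with replicate 2 above replicate 1 for Anxa2, Anxa3 and Anxa4 and below it for Anxa5, Anxa6, S100a6, S100a10 and S100a11, most for S100a6, which was lower by 1.07. The antisense gene Anxa11os and the pseudogene S100a11-ps had 0 counts in all libraries.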
